A study of Homo sapiens with 31 samples.

Results

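Of the 55371 circular RNA (circRNA) structures in the deposited table, 1298 had at least 1 back-splice read in each of the 15 total RNA libraries, and these widely detected circRNAs are described here. They made up 2.34% of the structures and held 485547 of the 1029205 back-splice reads, a share of 47.2%. Membership therefore rests on the read counts themselves, so the levels of these circRNAs are given as a description. Human H9 embryonic stem cells, an established cell line, were sampled undifferentiated at day 0 and after retinal differentiation at days 45 and 90, each with 3 replicates. The series description names retinal pigment epithelium as the aim, whereas the study's methods describe layered retinal tissue with photoreceptors. Parallel cultures received IGF-1 at 5 ng/ml until day 37 and 10 ng/ml afterwards, and were sampled at days 45 and 90, also with 3 replicates each. All libraries came from ribosomal RNA-depleted total RNA of this 1 line, cells were harvested without physical selection, and 16 amplicon samples of the series were not used here. The letters a to c in the library names were read as replicates 1 to 3.

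A circRNA forms when the 3′ end of an exon, its splice donor, is joined back to the 5′ end of the same or an upstream exon, its acceptor. Because the product has no free ends, it escapes the exonucleases that degrade linear RNA, and circRNAs are known to be abundant in neural tissue and in cells that divide slowly. Long flanking introns and sequences that can pair across them are known to favour back-splicing. A read is assigned to a circRNA only when it crosses the back-splice junction, so a circRNA is counted once per junction whatever its length.

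The junctions of 8 of these circRNAs are shown because the levels described below turn on them, with the last 15 bases of the donor exon in lower case and the first 15 bases of the acceptor exon in capitals, read from the GRCh37 genome on the strand of the host gene. Each circRNA is named by its host gene, donor exon and acceptor exon, numbered within the transcript named by the file.
RMST E12-E6: gaatggcttcatgagATTCTCAGGATGATG
SMARCA5 E16-E15: agagaaaaacaaaagGGAGGCTTGTGGATC
MAN1A2 E5-E2: ctatcaggagaggagGGAAGAGGAAGAACG
MAN1A2 E4-E2: cttgatttcagtgtgGGAAGAGGAAGAACG
HIPK3 E2-E2: atctcggtactacagGTATGGCCTCACAAG
NRIP1 E3-E2: gcttggagacagacgGAAGTGTTTGGATTG
FIRRE E10-E5: agatactttatgaggAGACTAAGGTGTCAG
KCNN2 E4-E4: ccgagcttgtgaaagTTGTTCATGGTGGAC
The MAN1A2 junctions carry the same capitals because both circles begin at exon 2, and HIPK3 and KCNN2 each close 1 exon on itself. RMST E12-E6 lies at chr12:97886239-97954825 on the plus strand, SMARCA5 E16-E15 at chr4:144464662-144465125 on the plus strand and FIRRE E10-E5 at chrX:130883334-130928494 on the minus strand. NRIP1 E3-E2, at chr21:16386665-16415895 on the minus strand, consists of exons of the 5′ untranslated region alone.

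The 15 libraries held between 14992 and 108946 back-splice reads, with 14992, 15116 and 17929 at day 0 and at least 42858 in each of the later 12. Membership followed that difference. Of the 973 circRNAs found in 14 libraries, 823 were missing from a day 0 library, 15 from an untreated day 45 library and 70 from an untreated day 90 library. Whereas 3568 circRNAs were found in all 12 later libraries, 1759 were found in all 3 day 0 libraries. Just inside the rule, 640 of the 1298 had exactly 1 read in their lowest library and a median of 111 reads in all, and just outside it the 973 had a median of 82. A higher read number did not ensure membership. SUCO and FBXL17 each gave an abundant circRNA outside the rule, with 1728 reads in 13 libraries and 1343 reads in 14.

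The reads of the 1298 circRNAs were unevenly spread. The median was 182 reads over all libraries, the lower and upper quartiles were 102.25 and 350.0, and the lowest was 25. Together, 85 of them had at least 1000 reads, and 136 held 50% of the reads of the whole set. Of the 100 structures with most reads in the file, 95 belonged to the set.

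They came from 917 host genes of the 8095 that gave a circRNA, or 11.3%. Of the 1292 with an assigned host, 1285 were from protein-coding genes and 7 from non-coding genes, and the other 6 matched several genes and were not named. A single member was found in 680 hosts, 157 hosts had 2 and 80 had 3 or more. In 838 cases (64.9%) the circRNA was the most abundant one of its host. Members held a median of 73.6% of the back-splice reads of their host genes, with quartiles of 48.3% and 89.3%, and these hosts gave a median of 12 different circRNAs each against 3 for the other hosts.

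Some hosts used the same splice site in several members. An acceptor was shared with another member by 303 of the circRNAs, and a donor by 194. UBAP2, a ubiquitin-associated protein, gave the most, with 8 members of 45 to 1108 reads. SMARCC1, a core subunit of SWI/SNF chromatin remodelling complexes, gave 7 members of 39 to 173 reads, which held 25.4% of the reads of its 106 circRNAs. CAMSAP1, a microtubule minus-end binding protein, had 98.1% of its reads in 5 members. XPO1, the nuclear export receptor, PALS2, a membrane scaffold protein, UBA2, a subunit of the SUMO-activating enzyme, and the kinase MAP2K4 had 6 members each.

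In annotated exon structure the set was compact. A back-splice read shows only the donor and acceptor exons. Exon numbers and spliced lengths throughout therefore include every annotated exon between them in the named transcript. Whether the inner exons were retained was not observed. The median was 3 exons, against 4 for all structures and 3 for the 12498 structures with at least 10 reads, which is the set tested below. Single-exon circles made up 7.01% of the members (91) and 4.53% of all structures, whereas circles of more than 10 exons made up 1.62% and 8.56%. The median genomic span was 7191 bases, against 10070 for all structures and 8140.5 for the tested ones. Spliced length, which could be worked out for 1145 members, had a median of 420 bases against 512 overall. For the tested structures it was 437.5 bases, and for those found in 14 libraries 414. Median span, median spliced length and the single-exon share did not move steadily with detection, but the mean number of exons fell in steps. The mean number of exons was 5.84 in structures found in 1 library, 4.86 in those found in 2 to 5, 4.29 in 6 to 10, 4.03 in 11 to 13, 3.86 in 14 and 3.70 in all 15. No test was made of these differences, since structures that share a host or splice site are not independent.

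The acceptor was often near the start of the transcript. Exon 2 of the named transcript was the acceptor in 527 members (40.6%), against 28.3% of tested and 21.6% of all structures, and this share also moved in steps, from 18.6% of structures found in 1 library to 31.9% of those found in 14. Flanking introns were long. The median upstream intron was 10846.5 bases in members, 7533 in tested and 5374 in all structures, and the downstream intron 9599.5, 6441 and 4399 bases. First introns tend to be long, and with acceptors at exon 2 left out the upstream medians were 6702, 5419 and 4283 bases. A match of at least 20 bases in inverted orientation between the 1000 bases before the acceptor and the 1000 bases after the donor was present for 24.0% of members, 21.7% of tested and 17.3% of all structures, while a match in direct orientation was present for 9.17%, 11.1% and 11.4%. ACTAAC, the motif bound by the splicing regulator QKI, occurred on the strand of the host gene within 300 bases of either junction end in 7.70% of members and 7.28% of all structures. All 1298 acceptors were preceded by AG, and 1291 donors were followed by GT and 7 by GC.

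**Figure D1:**
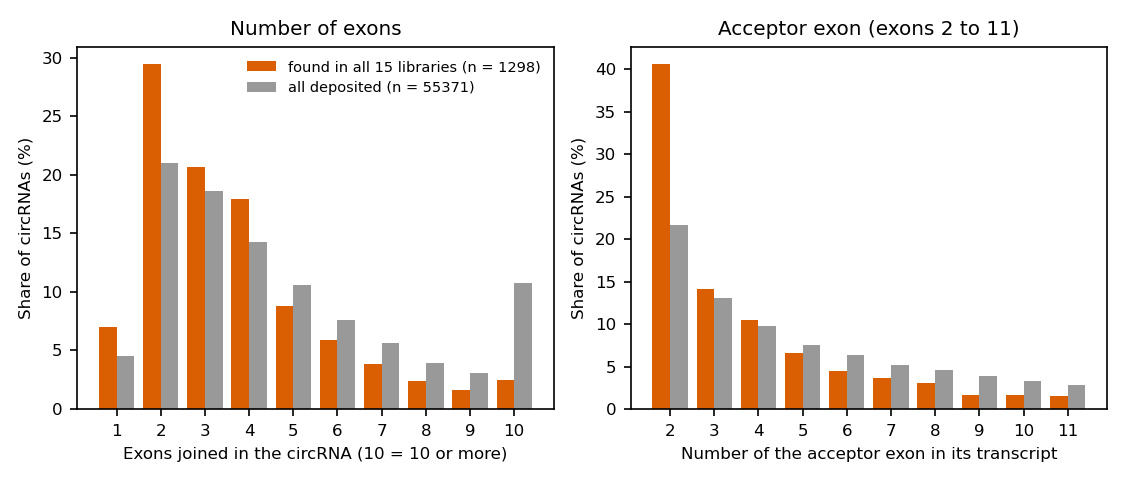
Number of annotated exons from acceptor to donor (left) and number of the acceptor exon (right). Bars give the share in percent of the 1298 circRNAs found in every library (orange) and of all 55371 structures (grey). Exon 2 was the acceptor in 40.6% of the former and 21.6% of the latter, and circles of 2 to 4 exons made up 68.0% and 53.9%.

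Most members lay within the coding sequence. Of the 1145 members that could be placed in an annotated transcript, 872 contained coding exons only (76.2%, against 83.8% of all placed structures), 191 included the start codon but not the stop codon (16.7% against 9.93%), 12 the stop codon alone and 2 both. A further 12 lay wholly in untranslated exons and 56 in non-coding transcripts. The extremes were SUPT3H E6-E2, which spanned 361649 bases with 5 annotated exons and 80 reads, and HABP4 E2-E2, a single exon of 163 bases with 175 reads. XRN2 E27-E2 spanned the most exons, 26 by annotation, and had 141 reads.

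The hosts included many genes from which circRNAs are widely reported, 29 of the 33 such genes with any circRNA here, with 54 members that held 20.03% of the members' reads. Lists of this kind were compiled with earlier results of these data known, and the share of all hosts with a member was 11.3%. Chromatin regulators had a member in 28 of 58 hosts, protein kinases in 26 of 56, ubiquitin ligases and deubiquitinases in 19 of 49, RNA processing and translation genes in 17 of 48, and centrosome and cilium genes in 17 of 53. Among nuclear pore and transport genes 12 of 40 hosts had one, among membrane traffic genes 13 of 52 and among DNA replication and repair genes 16 of 69. Zinc finger genes with a ZNF symbol were near the overall share, with 18 of 166. Genes of synapses and axon guidance had a member in 3 of 50 hosts, pluripotency genes in 2 of 13 (TET1 and PHC1) and retina and eye field genes in 1 of 13 (EYA3). Per tested circRNA the order differed, with 10.4% members over all hosts. Membrane traffic (7.55%), ubiquitin (8.52%) and synapse genes (6.52%) were below that share. Chromatin regulators (14.5%), kinases (14.7%), RNA processing (16.7%), centrosome (12.3%), nuclear pore (11.4%), DNA repair (12.5%) and ZNF genes (12.2%) were above it. Of 13 markers chosen for pluripotent and retinal cells, 2 had any back-splice read (DNMT3B and L1TD1, with 1 each), so these reads do not check the labelled cell types.

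The share of each library's back-splice reads that fell on the 1298 circRNAs was 53.8%, 54.6% and 49.97% at day 0 and between 44.2% and 48.2% in the 12 later libraries. Since the rule required reads in the shallow day 0 libraries, it favours a higher share there, and nothing is read from this difference. Relative to sequencing depth the set was far below its later level at day 0. Its summed level was 62.2 ± 3.67 reads per 1000000 sequenced reads (RPM, SD, n = 3) at day 0, 342 ± 81.3 at day 45, 296 ± 28.2 at day 45 with IGF-1, 227 ± 72.1 at day 90 and 272 ± 45.6 at day 90 with IGF-1. All 3 day 0 libraries were below all 12 others. In bulk RNA, fewer cells of a type and less RNA per cell cannot be told apart. RNA integrity numbers moved with time as well, from 9.8 to 10 at day 0 to 7.6 to 9.1 at day 45 and 7.1 to 8.9 at day 90, and their part in these levels was not tested.

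**Figure D2:**
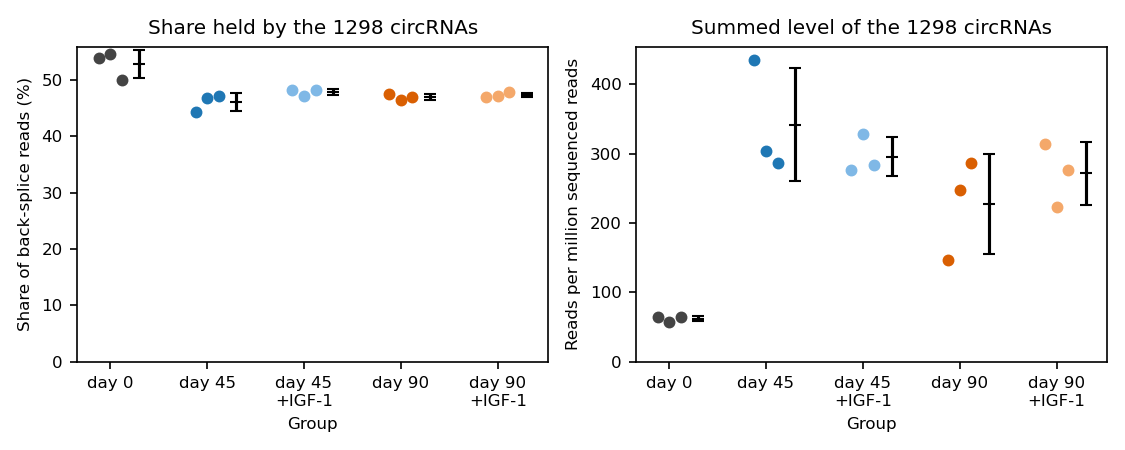
Share of back-splice reads in percent (left) and summed level in RPM (reads per 1000000 sequenced reads, right) of the 1298 circRNAs, by group. Points are libraries and bars give the mean ± SD of 3, and the day 0 libraries lie between 58.0 and 64.7 RPM, below the lowest later library at 147.

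RMST E12-E6, from a long non-coding RNA known for its role in neurogenesis, had most reads (22422, 4.62% of the set). It gave 31, 36 and 29 reads at day 0, 797, 1923 and 2705 at day 45, 1581, 2377 and 2226 at day 45 with IGF-1, 556, 2056 and 1734 at day 90, and 1812, 2106 and 2453 at day 90 with IGF-1. Every later library was above every day 0 library, and the first replicates of untreated day 45 and day 90 were the lowest of the later ones. Its level went from 0.236 ± 0.025 to 13.2 ± 5.66 RPM between day 0 and day 45 (log2 change 5.80, SE 0.48, adjusted p = 2.59e-29, edgeR quasi-likelihood test with Benjamini-Hochberg adjustment).

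SMARCA5 E16-E15, from the ISWI chromatin remodelling ATPase, came next with 14741 reads. Its counts were 209, 230 and 179 at day 0, 1576, 1286 and 1216 at day 45 and 630, 867 and 1476 at day 90, without overlap between day 0 and either later day. It held 99.3% of the back-splice reads of its gene, and its log2 change from day 0 to day 45 was 2.80 (SE 0.41).

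MAN1A2, a Golgi mannosidase that trims N-linked glycans, gave 4 members, 2 of them in the top 10. MAN1A2 E5-E2 gave 74, 61 and 37 reads at day 0, 1248, 985 and 1152 at day 45, and 579, 831 and 1062 at day 90. MAN1A2 E4-E2, which starts at the same acceptor, gave 31, 30 and 20 reads at day 0, 550, 376 and 465 at day 45, and 177, 329 and 362 at day 90. The fitted folds at day 45 were 20.4 and 18.0 (log2 change 4.35, SE 0.45, and 4.17, SE 0.45), and the longer circle was the higher in every library.

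HIPK3 E2-E2, a single exon of 1099 bases of a homeodomain-interacting protein kinase that includes the start codon, gave 128, 92 and 81 reads at day 0, 554, 462 and 609 at day 45 and 236, 556 and 523 at day 90. The other 5 of the top 10 were from MSANTD3-TMEFF1 (a readthrough transcript that overlaps single genes, so that its host is uncertain, 7496 reads), RERE (a transcriptional corepressor, 5650), N4BP2L2 (3458), ZNF608 (a zinc finger protein, 3348) and EXOC6B (an exocyst subunit, 3253). All 10 rose from day 0 to day 45, with log2 changes from 2.47 for HIPK3 to 5.80 for RMST, although with median-of-ratios size factors SMARCA5 (0.40) and HIPK3 (0.12) no longer passed. The 10 were chosen on summed reads that came mainly from the later libraries. That choice favours circRNAs that rise, so nothing is read from their shared direction.

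**Figure D3:**
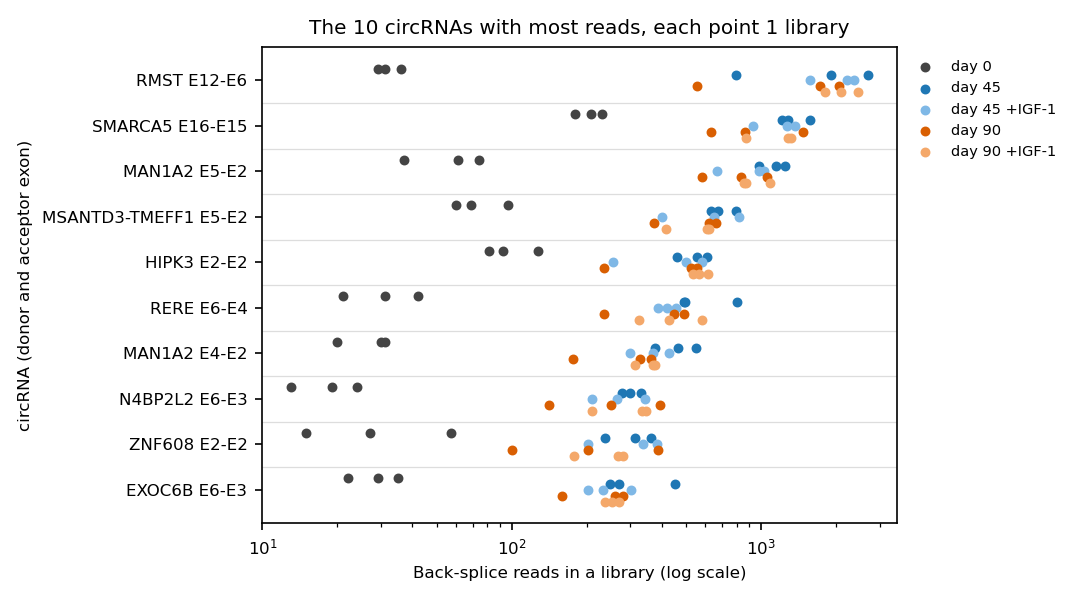
Back-splice reads (log axis) of the 10 circRNAs with most reads, with 1 point per library coloured by group. In each of the 10 the 3 day 0 libraries lie to the left of all later libraries, which overlap one another. The 10 were chosen on summed reads that came mainly from the later libraries, which favours circRNAs that rise.

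Over the whole set, 926 of the 1298 circRNAs were called higher and 5 lower at day 45 than at day 0. The background over all 12498 tested structures was 40.9% higher and 0.256% lower, and nothing is read from the difference, as the rule itself required reads at day 0. The median log2 change of the members was 2.22, with quartiles of 1.50 and 2.96, against 2.87 for all tested structures. RPM did not overlap between the groups for 1035 members that were higher and 6 that were lower, with a background of 46.2% and 0.448%. At day 90 against day 0, 618 members were called higher and 8 lower (background 21.7% and 0.328%), with a median log2 change of 1.60, and 789 were higher and 17 lower without overlap (background 32.4% and 0.848%).

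This direction depends on the scale. Scaled to the back-splice totals of the libraries with TMM factors, which gives changes relative to other circRNAs, the median log2 change of all tested structures moved from 2.87 to 1.63 and that of the members from 2.22 to 0.55, and 236 members were then higher and 42 lower at day 45. The background on that scale was 851 higher and 113 lower of the 12498 tested structures. With median-of-ratios size factors, which rest on structures with no zero count and so on exactly these 1298 members, the members' median was -0.09 by construction and 85 were higher and 88 lower. Over all tested structures the median was then 1.24, with 321 higher and 189 lower.

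Changes were spread more widely than their errors between day 0 and day 45, but not between day 45 and day 90. The SD of the log2 change over the members was 1.14 for day 45 against day 0, with a median SE of 0.64. For day 90 against day 45 the SD was 0.49 and the median SE 0.53, around a median of -0.61. That median was -0.07 with TMM factors on back-splice totals and -0.004 with median-of-ratios factors, and it was -0.36 and -0.39 without the first untreated replicate of day 45 or of day 90. The 5th and 95th percentiles were 0.40 and 4.10 in the former comparison and -1.41 and 0.16 in the latter. These comparisons share the day 45 libraries.

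The spread was present within host genes. In the 237 hosts with 2 or more members, the SD of the log2 change from day 0 to day 45 was 0.89 among members of 1 host and 1.09 over all 612 of these members, whose median SE was 0.62. The median range within a host was 1.14. In UBAP2 the log2 change ran from 0.35 (SE 1.11) to 3.31 (SE 0.46) over 8 members, of which 6 were called higher, and in SMARCC1 from -0.59 (SE 1.00) to 2.28 (SE 0.62) over 7, of which 2 were called. The lowest of each rested on few reads, 4 at day 0 and 5 at day 45 for UBAP2 E13-E9 and 8 and 5 for SMARCC1 E26-E22, and no test of the differences within a host was made. All 6 members of UBA2 were called higher, with 1.84 to 3.43. The widest range was in SUMF1, the sulfatase modifying factor, from 0.81 to 5.26.

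The change also differed a little with structure. The median log2 change was 2.06 for the 91 single-exon circles, 2.29 for the 382 with 2 exons, 2.26 for the 501 with 3 to 4, 2.15 for the 292 with 5 to 9 and 1.67 for the 32 with 10 or more. It was 2.13 where the acceptor was exon 2 and 2.33 elsewhere, and 1.86 for the 191 that included a start codon but no stop codon. By reads at day 0, which enter the change itself and the rule for membership so that an inverse relation is built in, the medians were 2.44 for the 603 members with under 10 reads over the day 0 libraries, 2.06 for 505 with 10 to 29 and 1.95 for 190 with 30 or more.

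**Figure D4:**
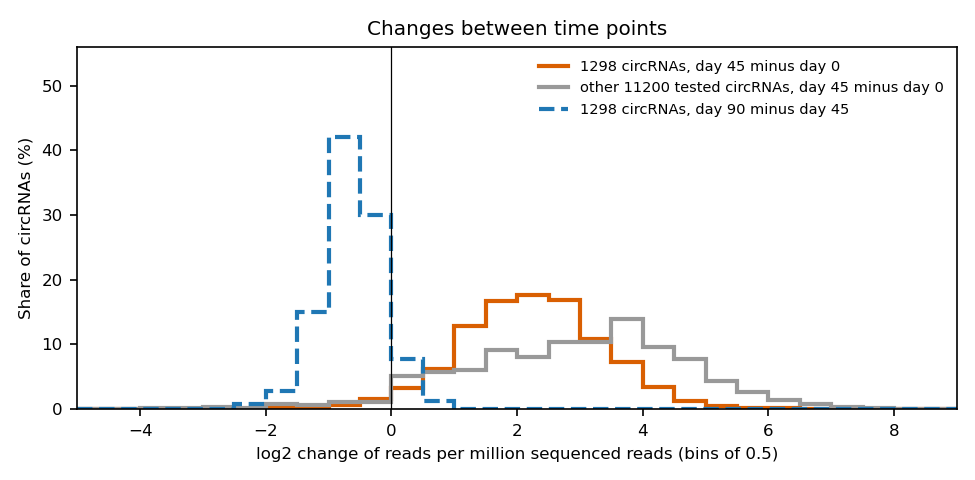
Distribution of log2 changes in bins of 0.5, as the share in percent of circRNAs, for day 45 minus day 0 in the 1298 circRNAs (orange) and in the other 11200 tested structures (grey), and for day 90 minus day 45 in the 1298 (blue, dashed). The members centre at 2.22 and -0.61 in the 2 comparisons on this scale (0.55 and -0.07 with TMM factors on back-splice totals), and the latter distribution is the narrower.

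The 5 members with the largest rises without overlap were NRIP1 E3-E2, DNAI4 E4-E2, VPS13C E15-E10, RMST E12-E6 and SDK1 E4-E2. NRIP1, a nuclear receptor corepressor, gave 3, 2 and 1 reads at day 0, 126, 313 and 255 at day 45 and 66, 111 and 232 at day 90. The ratio of its RPM between day 45 and day 0 was 119, with an exact 95% interval of 54.4 to 326 that covers counting error only. DNAI4, an axonemal dynein intermediate chain, gave 2, 1 and 1 reads at day 0 and 79, 142 and 106 at day 45, a ratio of 84.1 (32.6 to 311). VPS13C, a lipid transfer protein, gave 3, 2 and 2 reads and then 198, 170 and 105, a ratio of 69.5 (33.5 to 174). SDK1, a cell adhesion molecule of the immunoglobulin superfamily, gave 1, 2 and 2 reads and then 88, 77 and 70, a ratio of 48.4 (20.4 to 150). These 4 were just above the limit of detection at day 0.

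Only 5 members were called lower at day 45, all without overlap. FIRRE E10-E5, from an X-linked long non-coding RNA with a role in nuclear organisation, was the most abundant of them. It gave 380, 457 and 247 reads at day 0, 18, 173 and 171 at day 45, 10, 131 and 161 at day 45 with IGF-1, 51, 129 and 126 at day 90, and 116, 108 and 84 at day 90 with IGF-1. The first replicates at day 45, with and without IGF-1, were lower than their group by far. Its level was 2.67 ± 0.79 RPM at day 0 and 0.860 ± 0.61 at day 45 (log2 change -1.63, SE 0.40, adjusted p = 0.000354), and a Wald test in DESeq2 gave an adjusted p of 0.0766.

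KCNN2 E4-E4, a single exon of a small-conductance potassium channel, held all back-splice reads of its gene. It gave 42, 26 and 59 reads at day 0, 9, 6 and 13 at day 45 and 2, 7 and 5 at day 90, and it fell by 2.13 on the log2 scale to day 45 (SE 0.52, adjusted p = 0.000332, edgeR). DNAJB6 E8-E6, from a co-chaperone gene, gave 15, 18 and 34 reads at day 0 and 8, 6 and 6 at day 45, but without the third day 0 replicate its adjusted p was 0.115, without the third day 45 replicate 0.0507, and without the filter on summed counts 0.0617. PRKD3 E2-E2, from a protein kinase D gene, gave 40, 32 and 31 reads at day 0 and 11, 17 and 15 at day 45. Its adjusted p of 0.0320 became 0.114 without the first day 0 replicate, 0.0622 without the first day 45 replicate, 0.0676 without the third and 0.142 without the filter on summed counts.

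RAPGEF5 E6-E2, from a guanine nucleotide exchange factor for Ras-family GTPases, was the only member with a call between day 45 and day 90. It gave 12, 21 and 11 reads at day 0, 6, 9 and 1 at day 45, 22, 43 and 65 at day 90, 3, 20 and 8 at day 45 with IGF-1 and 24, 28 and 16 at day 90 with IGF-1. It rose by 2.83 on the log2 scale from day 45 to day 90 (SE 0.54, adjusted p = 0.00103, edgeR), against a background of 0.016% higher and 0.064% lower. Without the third day 45 replicate, which held 1 read, the change was 2.30 and the adjusted p 0.0869. Its fall from day 0 to day 45 (adjusted p = 0.0429) had an adjusted p of 0.0597 and 0.170 without the first or second day 0 replicate and 0.246 without the third day 45 replicate. That call was also lost in the DESeq2 Wald test (adjusted p = 0.0526), without the filter on summed counts (0.187), with the second day 90 read number given to replicate 1 (0.0546) and with a replicate block (0.0542).

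At day 90 the 8 members called lower than at day 0 were KCNN2, DNAJB6, FIRRE and PRKD3 again and FAM169A E5-E2, FAT1 E3-E2, SPECC1 E2-E2 and UGP2 E4-E3, named after their values were seen. SPECC1 E2-E2, from a cytospin gene, gave 94, 120 and 89 reads at day 0, 71, 41 and 83 at day 45 and 27, 74 and 39 at day 90. FAT1 E3-E2, from an atypical cadherin, gave 17, 13 and 17 reads, then 8, 11 and 19, then 3, 6 and 3.

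The members that varied least per sequenced read still spanned a several-fold range over the 15 libraries. SKIL E3-E2, from a repressor of TGF-beta signalling, had the lowest coefficient of variation (30.2%), with 53, 38 and 30 reads at day 0, 23, 44 and 45 at day 45 and 36, 48 and 53 at day 90, and its level lay between 0.189 and 0.521 RPM. CDC14B E12-E2, PALS2 E6-E3 and USP25 E18-E17 were also among the steadiest, with coefficients of 30.8% to 32.5% and log2 changes to day 45 of 0.19, 0.37 and -0.01. Their levels ran from 0.0938 to 0.292, 0.101 to 0.374 and 0.0320 to 0.127 RPM. None of these 4 passed the test on this scale. With TMM factors on the back-splice totals, SKIL was -1.74, CDC14B -1.49, PALS2 -1.35 and USP25 -1.70 and each passed.

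**Figure D5:**
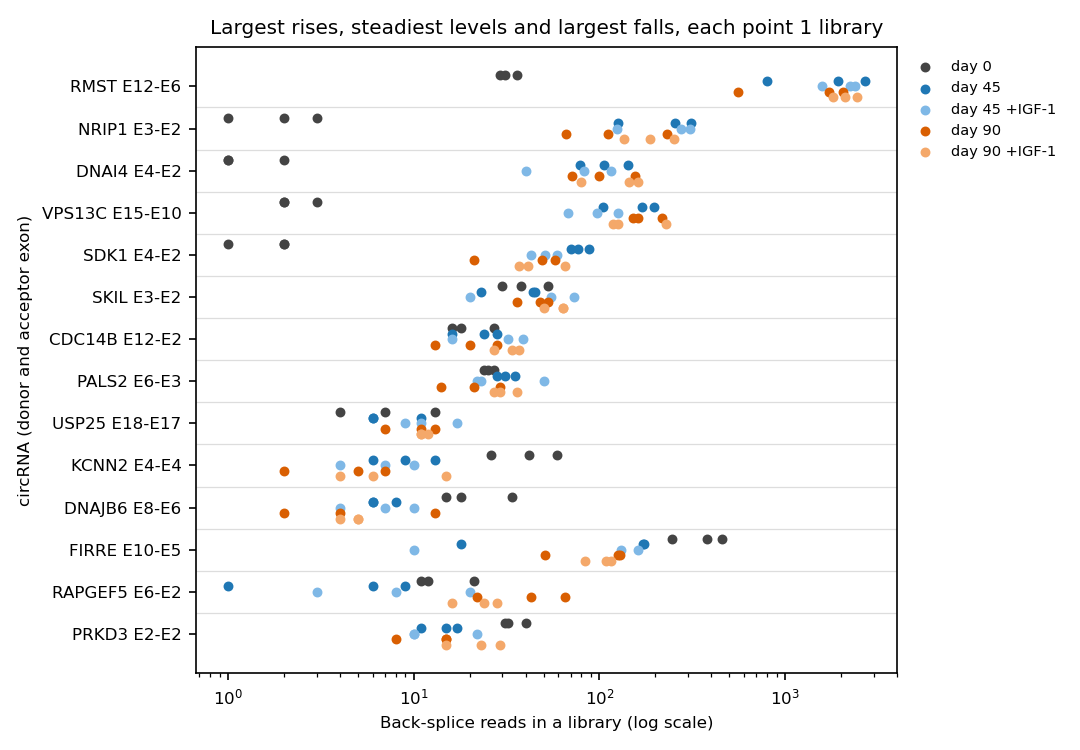
Back-splice reads (log axis) in each library for the 5 largest rises (top), 4 of the steadiest levels (middle) and the 5 largest falls (bottom), with 1 point per library coloured by group. Day 0 points lie at 1 to 3 reads for NRIP1, DNAI4, VPS13C and SDK1 and to the right of all untreated day 45 points for the 5 falls.

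The widest ranges among the 12 later libraries, apart from RAPGEF5, were those of AP3B1 E22-E16 and AEBP2 E7-E2, and each rested on the first untreated day 45 replicate. AP3B1, a subunit of the AP-3 adaptor, gave 33, 8 and 4 reads at day 45 and between 1 and 8 in every other library. AEBP2, a Polycomb cofactor, gave 25, 5 and 1 reads at day 45 and at most 10 elsewhere. Without that replicate their log2 changes to day 45 went from 3.54 to 2.01 (adjusted p = 0.0885, edgeR) and from 3.01 to 1.05 (adjusted p = 0.426).

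Of the 7 members from non-coding hosts, 4 were called higher and 1 lower at day 45. Over all members the shares were 71.3% and 0.385%, and the background was 40.9% and 0.256%. RMST rose and FIRRE fell, as given above. STX18-AS1 E4-E3, from an antisense RNA, gave 8, 6 and 13 reads at day 0 and 45, 51 and 55 at day 45 (log2 change 2.51, SE 0.49, adjusted p = 4.29e-06, edgeR). Both ENSG00000261553 E6-E3 and RIPK2-DT E3-E2 were called higher too, with 10 and 7 reads over the day 0 libraries and 51 and 38 over those of day 45. The other 2, PPP4R1L E5-E4 and UBA6-DT E4-E2, gave log2 changes of 0.73 (SE 0.71) and 1.92 (SE 1.03) and did not pass.

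By host function, the share called higher at day 45 ranged around the 71.3% of all members. The background over all tested structures was 40.9%, and nothing is read from the counts of single lists. Of the chromatin regulators' members 32 of 51 rose, with a median log2 change of 2.03. Above that median were ASXL1 E4-E2, a Polycomb-associated protein (3.99, SE 0.46), and KDM1A E4-E2, a histone demethylase (3.23, SE 0.45). Of the listed kinases' members 33 of 43 rose, with a median log2 change of 2.32. Well above it were ACVR2A E5-E3, an activin receptor (4.36, SE 0.47), and STK39 E14-E9 (4.64, SE 0.50). Of the ubiquitin ligases' and deubiquitinases' members 19 of 26 rose, with 1.67 (SE 0.41) for FBXW7 E3-E2 and 2.96 (SE 0.44) for UBE3A E6-E2. Among RNA processing and translation genes 23 of 27 rose, and RBM33 E5-E3, at 0.83 (SE 0.42), did not pass. For the centrosome and cilium list the count was 26 of 33, with 5.52 (SE 0.58) for BBS9 E5-E2, a component of the ciliary BBSome, and 1.79 (SE 0.40) for CAMSAP1 E3-E2.

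Counts for the remaining lists were 17 of 24 for membrane traffic, 17 of 24 for DNA replication and repair, 16 of 22 for nuclear pore and transport, 16 of 20 for ZNF genes, 5 of 6 for synapse and axon guidance, 2 of 4 for pluripotency and 1 of 2 for retina and eye field. Beside them stand the same 71.3% of all members and 40.9% of tested structures. No member of these 12 lists was called lower, beside 0.385% of all members and 0.256% of tested structures, but the lists are not complete. PRKD3, a protein kinase D gene whose member was called lower, was not in the kinase list. Among the widely reported hosts 44 of 54 rose and 1, FIRRE, fell. TET1 E4-E4, a single exon of the DNA demethylase TET1, gave a log2 change of 2.68 (SE 0.47), and PHC1 E5-E4, from a Polycomb gene, -0.16 (SE 0.82). EYA3 E6-E2, from an eye field phosphatase, gave 3.21 (SE 0.78).

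IGF-1 made no detectable difference to single members. At day 45 and at day 90, no member was called by edgeR or DESeq2, with 29 and 19 members at an unadjusted p under 0.05, and the background was 0.0% higher and 0.016% lower at day 45 and 0.0% and 0.008% at day 90. The median log2 change was -0.22 at day 45 (SD over members 0.44, median SE 0.53) and 0.24 at day 90 (SD 0.43, median SE 0.54). These medians rested on single libraries, being 0.02 without the first untreated day 45 replicate and 0.01 without the first untreated day 90 replicate. The former was also -0.33 without the third untreated day 45 replicate, and the latter 0.48 without the third untreated day 90 replicate and 0.11 without the first day 90 replicate with IGF-1. With TMM factors on back-splice totals they were 0.02 and 0.07. RPM did not overlap at day 45 for 20 members that were higher and 84 that were lower with IGF-1 (background 2.45% and 5.89%), and at day 90 for 92 and 10 (background 4.98% and 1.93%). Between untreated day 45 and day 90, 3 members were higher and 285 lower without overlap (background 0.752% and 13.2%).

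The mix of members within a library was compared by 3 values per library, with 12 two-sided exact permutation tests over libraries. The mean number of annotated exons per member read was 3.47 ± 0.102 at day 0 (n = 3) and 3.56 ± 0.073 in the untreated later libraries (n = 6, exact p = 0.179, adjusted p = 0.714). The geometric mean span per member read was 5519 bases at day 0 and 6084 later (exact p = 0.0238, adjusted p = 0.143), and this difference rested on 1 circRNA, since without RMST E12-E6 the log10 difference was -3.7e-05 (exact p = 1.0) in place of 0.042. The 10 members with most reads held 7.26% ± 0.65 of member reads at day 0 and 17.1% ± 1.61 later (exact p = 0.0119, the smallest possible, adjusted p = 0.143). These 10 were chosen on reads that came mainly from the later libraries. With each library's own 10 highest members, the day 0 shares were 12.5% to 16.8% and the later untreated shares 15.5% to 19.5%, a difference of 2.49 percentage points (exact p = 0.0952). None of the 12 tests passed after adjustment, and those of 3 libraries against 3 cannot give a p under 0.1.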

How the data were processed

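The authors deposited one table of back-splice junctions with raw read counts, a sum for each structure and a text field of unit "other" that lists the count of each library. Per the labels and the study's methods, RNA was ribosomal RNA-depleted and sequenced as stranded paired-end libraries, and PTESFinder v1 with GENCODE v19 on hg19 identified the junctions. The members and the gene lists were chosen with earlier results of these data known. Host genes, exons and introns were taken from GENCODE v44 lifted to GRCh37, through the named transcript or, failing that, identical exon ends. RPM is back-splice reads per 1000000 sequenced reads, with read numbers from the study's sequencing table. Untreated day 90 replicates 1 and 2 share a label there and received the mean of their numbers.

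Counts of structures with at least 10 reads (12498) were fitted across all 15 libraries with edgeR 4.0.16 (quasi-likelihood test, sequenced reads as library size, Benjamini-Hochberg adjusted p under 0.05), and with DESeq2 1.42.0 as an alternative. The script was tested on simulated data. Intervals of ratios are exact binomial. The circRNAs named are the 10 with most reads, the 5 largest rises and falls among called members whose RPM did not overlap, the 5 with the lowest coefficient of variation, calls in the other comparisons, members of the 5 hosts with most members, non-coding hosts, structural extremes, the 3 widest ranges among later libraries and the highest members of each gene list. One circRNA that this rule names and one marker gene are not reported here. The labels call the replicates biological. Alternatives were other scalings, filters, membership rules, a replicate block, a term for sequencing quality and each library left out.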

Additional observations from a re-analysis of the deposited data

How the results depend on the processing

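Requiring at least 2 reads in each library left 658 circRNAs with 37.3% of all reads, requiring 5 left 227 with 25.3% and a median span of 5821 bases, and 14 of 15 libraries gave 2271 with 58.3%. Leaving out each library in turn gave 1299 to 1610 members with 47.2% to 51.2% of reads. Calls for day 45 against day 0 (931 in the main analysis) were 278 with TMM factors on back-splice totals and 173 with median-of-ratios size factors, with a median log2 change of 0.551 and -0.0888, and 788 to 954 with single libraries left out. For day 90 against day 0 (626) they were 278 and 191, and 460 to 703. For day 90 against day 45 (1) they were 2 under both scalings, 3 in the DESeq2 Wald test, 2 under one assignment of the day 90 read numbers, and 1 to 3 with single libraries left out. No alternative gave a call for IGF-1 among the members. Over all 12498 tested structures, the main analysis called 5114 higher and 32 lower at day 45 against day 0. TMM factors gave 851 and 113, and median-of-ratios factors 321 and 189. At day 90 against day 0 these numbers were 2713 and 41, 819 and 122, and 360 and 194.

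Between scalings the sign turned for CDC14B (-1.49 and -2.13 with TMM and median-of-ratios factors) and PALS2 E6-E3 (-1.35 and -1.999), and for USP25 with a replicate block (0.0219) and a term for sequencing quality (0.0289). With single libraries left out it turned for SKIL (-0.31 to 0.21), USP25 (-0.29 to 0.48) and FAM169A (-0.96 to 0.12). Without RMST the difference in exons per read was -0.0512 and that in log10 span -3.7e-05, and the latter was 0.047 (exact p = 0.119) for members with 5 reads in each library. Single libraries left out gave 0.035 to 0.137 exons, 0.026 to 0.057 in log10 span and 9.41 to 10.2 points in the top 10 share. That share differed by 2.49 points for each library's own top 10 and by -3.74 points (exact p = 0.0119) for the 10 members with most reads at day 0, both chosen after seeing the data. The latter 10 were picked on the day 0 reads that enter the test. A higher day 0 share is favoured by that choice, so nothing is read from this p. The causes were not tested.

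Same-numbered libraries of different groups correlated from -0.12 to 0.24 in their deviations from the group means (median 0.015, 30 pairs). Differently numbered ones correlated from -0.16 to 0.14 (median -0.0075, 60 pairs). The best correlation was with a library of the same number for 11 of 15 libraries, a larger share than same-numbered pairs make up. Whether the numbers pair the samples was not tested. With the replicate block 894 members were called for day 45 against day 0, 581 for day 90 against day 0 and 1 for day 90 against day 45, and RAPGEF5 had an adjusted p of 0.0542 for its fall to day 45 (edgeR). In sign flips within replicate numbers the log10 span difference of 0.042 and the top 10 difference of 9.85 points had an exact p of 0.25, the smallest possible. Day 0 counts limit precision, since 402 members had at most 3 reads in each day 0 library.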
